A study of Homo sapiens with 4 samples.

Results

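The tubulin isotype genes of ACHN cells were examined by RNA-seq with and without PRR11 knockdown. The members were the rows of the deposited count table named TUBA1A, TUBA1B, TUBA1C, TUBA4A, TUBB, TUBB2A, TUBB2B, TUBB3, TUBB4B and TUBB6, which made 10 genes of 36359, 4 of them alpha and 6 beta. ACHN is an established human renal cell carcinoma line. One group received siNC, the control siRNA, and the other received siPRR11, each with 2 libraries. No other allele or agent is named in the labels, so the groups share the line and the transfection. The comparison asks how the mRNAs for the subunits of microtubules differ when PRR11, a proline-rich protein that the study linked to tumor growth and DNA damage, is silenced. All 4 libraries come from a single tumor line, the sources used here do not say which siPRR11 duplex each siPRR11 library received, and nothing in the labels says that the libraries of a group came from separate cultures. P-values therefore measure only the spread between these libraries, which may be technical.

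Microtubules are polymers of dimers that hold an alpha and a beta tubulin. Vertebrates encode each subunit in several genes, called isotypes, whose proteins are nearly the same in their folded core and differ most in the acidic tail at their C-terminal end, where motors and associated proteins bind and modifying enzymes add or remove residues. Cells also adjust tubulin mRNA to the pool of unpolymerized dimers, a process known as autoregulation. TUBA1B, TUBA1C, TUBB and TUBB4B are widely expressed isotypes. TUBA1A, TUBB2A, TUBB2B and TUBB3 are best known from neurons, TUBB6 is a beta isotype found in many non-neural cells, and TUBA4A is prominent in platelets and muscle.

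Counted reads ranged from 59003839 to 92612749 per library, and the members took 0.284% and 0.234% of them in siNC and 0.303% and 0.285% in siPRR11. Reads were scaled by edgeR's TMM method and are given as CPM, the counts relative to a scaled library of fixed size. Of all genes, 21630 had enough counts to be tested, all 10 members among them. PRR11 itself stood at 41.3 and 40.4 CPM in the siNC libraries and at 15.3 and 14.0 CPM in the siPRR11 libraries (edgeR log2 fold change -1.48, with an adjusted p of 3.35e-06). Of 10 markers of renal carcinoma and epithelial cells, 9 had at least 2.96 RPKM in every library, and CA12 reached at most 0.269 RPKM. Of the markers of other cell types, PTPRC, CD3E and PECAM1 had between 0 and 8 counts in any library, while the macrophage marker CD68 lay between 20.3 and 28.0 RPKM and DES, a muscle filament gene, rose from 0.193 and 0.225 RPKM in siNC to 0.665 and 0.692 RPKM in siPRR11 (adjusted p = 0.00118 from edgeR). The part of these differences in the results was not tested.

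The isotypes are so alike that sequences are shown first, for the widely expressed beta genes TUBB and TUBB4B and for the near-identical pair TUBB2A and TUBB2B. The last 63 bases of the coding sequence, stop codon included, encode most of the acidic tail. They were read from GRCh38 with the GENCODE release 44 annotation and are written 5′ to 3′ on the coding strand, each from within 1 exon. Capitals mark bases that differ from TUBB, or that stand opposite a gap in TUBB, in a pairwise alignment of the coding sequences. Bases of TUBB that a member lacks are not marked.
TUBB, chr6:30724335-30724397 on the plus strand: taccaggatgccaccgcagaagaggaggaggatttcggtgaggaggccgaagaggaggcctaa
TUBB4B, chr9:137243494-137243556 on the plus strand: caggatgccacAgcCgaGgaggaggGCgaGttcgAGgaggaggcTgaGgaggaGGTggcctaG
TUBB2A, chr6:3153863-3153925 on the minus strand: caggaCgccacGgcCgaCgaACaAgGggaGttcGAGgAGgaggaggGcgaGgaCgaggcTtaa
TUBB2B, chr6:3224751-3224813 on the minus strand: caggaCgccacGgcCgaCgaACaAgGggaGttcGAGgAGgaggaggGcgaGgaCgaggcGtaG
In this stretch TUBB4B had 14 capitals, TUBB2A 18 and TUBB2B 19, which count bases and not residues. The alpha tails, not shown, were compared with TUBA1B in the same way. TUBA1A had 0 capitals there, TUBA1C 12 and TUBA4A 14. Over its whole coding sequence TUBA1A had 38. Across the coding sequence, the alpha genes were 84.4% to 97.2% identical to each other, the beta genes 80.9% to 98.1%, and an alpha and a beta gene 52.0% to 53.7%. TUBA1A and TUBA1B were the closest alpha pair, at 97.2%, and TUBB2A and TUBB2B the closest beta pair, at 98.1%.

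Several members lie beside each other or across the exons of another gene. In the deposited table (GRCh38), TUBA1B lay at chr12:49127782-49131397 and TUBA1A at chr12:49184796-49189324, both on the minus strand, and TUBA1C at chr12:49188736-49274603 on the plus strand, where it overlaps TUBA1A. TUBA4A was placed at chr2:219249711-219278170 on the minus strand. TUBB2A and TUBB2B lay near each other at chr6:3153669-3157526 and chr6:3224261-3231730 on the minus strand, and TUBB at chr6:30720201-30725426 on the plus strand. TUBB3 at chr16:89921392-89938761, TUBB4B at chr9:137241213-137243707 and TUBB6 at chr18:12307669-12344320 were all on the plus strand. Exons of other genes on the opposite strand covered 14.3% of the exonic bases of TUBA1A, 36.6% of TUBA1B, 25.0% of TUBA1C, 18.1% of TUBA4A, 16.0% of TUBB, 7.93% of TUBB2B, 5.87% of TUBB4B and 20.3% of TUBB6. For TUBB3, 35.8% was covered on the same strand, and for TUBB2A no base was.

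How much of each gene can be told from its relatives was measured by the share of its 100-base exonic words that occur once in GRCh38. This share was 88.2% for TUBA1A, 83.3% for TUBA1B, 91.2% for TUBA1C and 98.9% for TUBA4A. It was 98.4% for TUBB, 97.6% for TUBB4B, 97.5% for TUBB3 and 100% for TUBB6. For TUBB2A it was only 37.0%, and for TUBB2B 47.8%, so the counts of these 2 genes rest on less sequence of their own and their split is less certain than that of the others. The plot of unique words shows the gap between this pair and the other 8 genes.

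**Figure D1:**
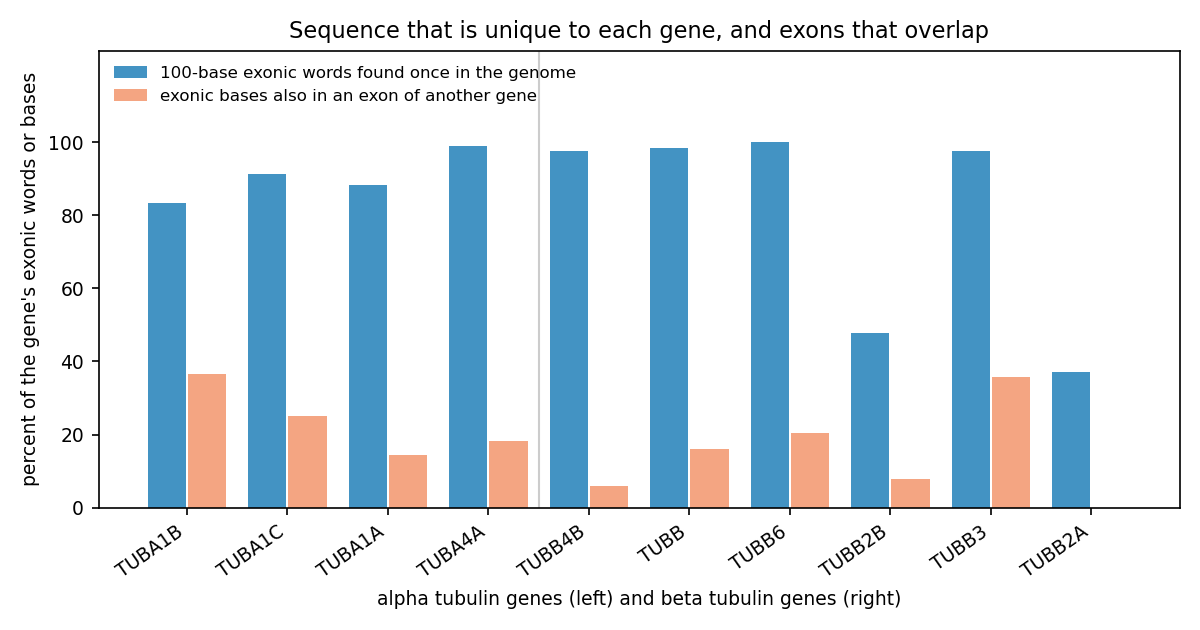
Percent of 100-base exonic words that occur once in GRCh38 (blue bars) and percent of exonic bases also covered by an exon of another gene (orange bars), for the 4 alpha genes on the left and the 6 beta genes on the right. TUBB2A at 37.0% and TUBB2B at 47.8% have the least unique sequence, and TUBA1B at 36.6% and TUBB3 at 35.8% are the most overlapped.

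Levels were first compared between isotypes by RPKM, which divides the counts by the exonic length. Among the alpha genes of siNC cells, TUBA1B led with 304 and 257 RPKM, followed by TUBA1C with 66.3 and 59.6 RPKM, TUBA1A with 57.1 and 42.1 RPKM and TUBA4A with 6.13 and 5.15 RPKM. None of these ranges overlapped by RPKM, although the lower TUBA1C value lay close to the higher TUBA1A value. Divided by the length of the canonical transcript instead, TUBA1A took 12.9% and 11.4% of alpha tubulin in siNC and TUBA1C 12.0% and 12.9%, so these 2 genes could not be ordered there. In siPRR11 cells the order by RPKM was the same, with TUBA1B at 346 and 328 RPKM, TUBA1C at 72.0 and 71.6 RPKM, TUBA1A at 37.2 and 34.7 RPKM and TUBA4A at 5.88 and 6.11 RPKM and a wider gap between TUBA1C and TUBA1A.

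Among the beta genes of siNC cells, TUBB4B had 146 and 113 RPKM and TUBB 123 and 102 RPKM. TUBB4B exceeded TUBB within each library, but the ranges of the 2 genes overlapped. TUBB6 with 58.0 and 49.9 RPKM and TUBB2B with 58.2 and 44.5 RPKM could not be ordered beyond their spread, nor could TUBB3 with 21.8 and 16.3 RPKM and TUBB2A with 21.6 and 16.1 RPKM. In siPRR11 cells, TUBB4B (165 and 149 RPKM) again exceeded TUBB (142 and 132 RPKM) within each library, and their ranges did not overlap. Whether the relation of these 2 genes differed between the groups was not tested. By RPKM, TUBB6 (63.8 and 61.5) lay above TUBB2B (46.7 and 43.4) in siPRR11 cells. TUBB3 (20.3 and 16.5 RPKM) and TUBB2A (18.1 and 16.6 RPKM) still overlapped. The place of TUBB2B turned with the divisor. Per unique 100-base position it took 19.1% and 19.3% of beta tubulin in siPRR11 against 12.0% and 12.5% for TUBB6, while per base of the canonical transcript it took 7.87% and 7.97% against 20.6% and 21.7%. The order of TUBB2A and TUBB3 depended on the divisor as well. Per unique position TUBB2A took 9.61% and 9.59% in siPRR11 against 3.99% and 3.52% for TUBB3. Per base of the canonical transcript TUBB2A took 2.86% and 2.86% against 7.79% and 6.88%. Genes best known from neurons were expressed in this renal line, at levels below those of the leading isotype of their class.

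Only TUBA1A passed the test between siPRR11 and siNC. Its level was 199 and 146 CPM in the siNC libraries and 125 and 117 CPM in the siPRR11 libraries. The groups did not overlap, and the means were 173 ± 36.9 CPM (SD, n = 2) in siNC and 121 ± 5.69 CPM (SD, n = 2) in siPRR11. On the log2 scale TUBA1A fell by 0.51 with a standard error of 0.117, to a fold of 0.70, and its p-value in edgeR's quasi-likelihood test, adjusted across all tested genes by the Benjamini-Hochberg method, was 0.0108. Thus 1 of 10 members passed, as lower, while 16.7% of all genes tested passed in either direction and 9.14% passed as lower. The siNC libraries differed from each other by 0.44 on the log2 scale for TUBA1A, against 0.10 between the siPRR11 libraries. The fold change was -0.28 without siNC replicate 1 and -0.72 without siNC replicate 2, and TUBA1A kept an adjusted p under 0.05 in both fits. With limma on log2(RPKM + 1) the adjusted p was 0.124, and with a pseudocount of 0.1 it was 0.111.

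TUBA1B, the most abundant alpha isotype, was at 1105 and 934 CPM in siNC and at 1216 and 1155 CPM in siPRR11 (log2 fold change 0.22, standard error 0.0862, adjusted p = 0.111 from edgeR). Both siPRR11 libraries lay above both siNC libraries, but the difference did not pass the test. TUBA1C, the widely expressed neighbour of TUBA1A, gave 312 and 281 CPM in siNC and 328 and 327 CPM in siPRR11, with no overlap (log2 fold change 0.14, adjusted p = 0.231 from edgeR). TUBA4A showed overlapping groups, with 25.4 and 21.4 CPM against 23.6 and 24.6 CPM (log2 fold change 0.04, adjusted p = 0.843 from edgeR).

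Of the beta genes, TUBB stood at 421 and 349 CPM in siNC and at 467 and 436 CPM in siPRR11. Its groups did not overlap (log2 fold change 0.23, standard error 0.091, adjusted p = 0.108 from edgeR). TUBB6 did not overlap either, with 243 and 209 CPM against 258 and 250 CPM (log2 fold change 0.17, adjusted p = 0.199 from edgeR). TUBB4B overlapped, since siNC replicate 1 at 314 CPM lay above siPRR11 replicate 2 at 311 CPM, while siNC replicate 2 was at 243 CPM and siPRR11 replicate 1 at 342 CPM (log2 fold change 0.23, adjusted p = 0.174 from edgeR). None of these beta genes passed the threshold.

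The remaining beta genes had fold changes below 0 that did not pass the test. TUBB2B, a neuronal isotype whose mutations disturb cortical development, was at 130 and 99.3 CPM in siNC and 101 and 93.9 CPM in siPRR11 (log2 fold change -0.24, standard error 0.109, adjusted p = 0.165 from edgeR). TUBB2A, its near copy, was at 38.0 and 28.3 CPM against 30.7 and 28.3 CPM (log2 fold change -0.17, adjusted p = 0.396 from edgeR). TUBB3, the isotype used as a marker of neurons, was at 98.3 and 73.4 CPM against 88.3 and 72.0 CPM (log2 fold change -0.10, adjusted p = 0.654 from edgeR). In all 3 genes the siNC replicate 2 library lay within or just beside the siPRR11 range, and the groups overlapped.

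**Figure D2:**
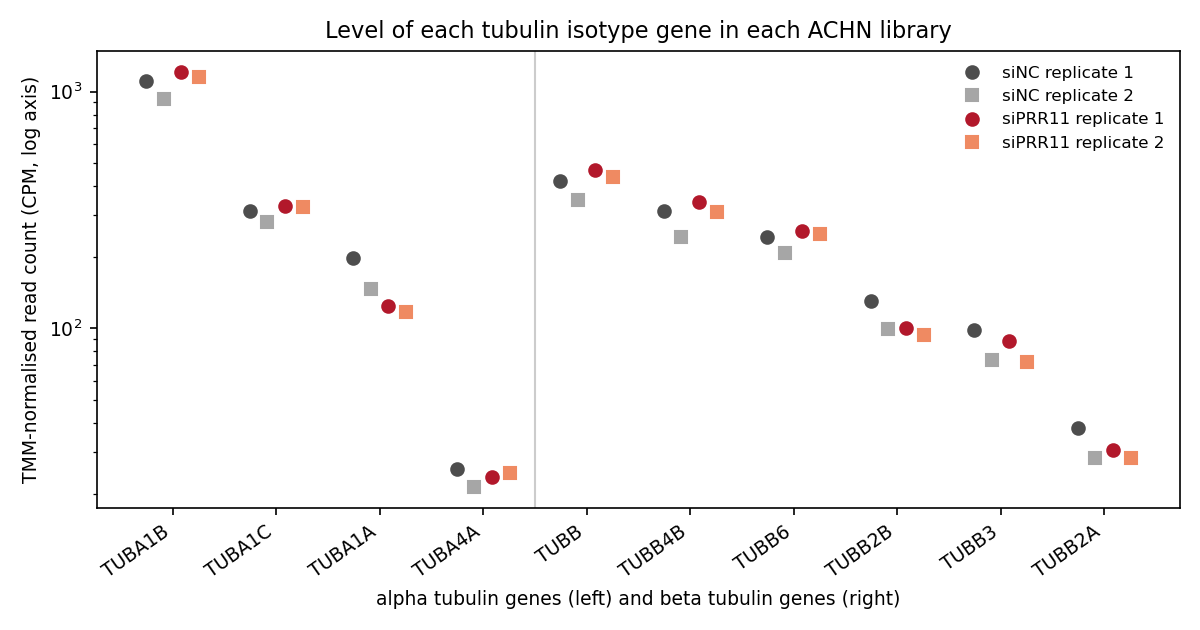
TMM-normalised CPM on a log axis for each member, with 1 point per library, grey for siNC and red for siPRR11, circles for replicate 1 and squares for replicate 2. TUBA1A is the only gene whose siPRR11 points both lie below its siNC points, while TUBA1B, TUBA1C, TUBB and TUBB6 have both siPRR11 points above.

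Over the 10 members, the groups did not overlap for 5, with 4 higher in siPRR11 (TUBA1B, TUBA1C, TUBB and TUBB6) and 1 lower (TUBA1A). In the background of all genes tested, 29.1% lay higher without overlap and 29.3% lower. The median log2 fold change of the members was 0.09, against 0.00 over all genes tested. At 2 libraries against 2, an exact permutation test of a single gene cannot go below a two-sided p of 0.333.

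The fold changes of the members depended on the control library used. Every one of the 10 members was higher in siNC replicate 1 than in siNC replicate 2, by 0.15 to 0.44 on the log2 CPM scale with a median of 0.32. Over 5493 genes of at least 5 mean log2 CPM, the same difference had a median of -0.01, an SD of 0.158 and a 95th percentile of 0.24. The siPRR11 replicates were closer, with 9 of 10 members higher in replicate 1 and differences of -0.06 to 0.30. Over the same 5493 genes the siPRR11 difference had a median of -0.006, an SD of 0.112 and a 95th percentile of 0.177. Without siNC replicate 1, the log2 fold changes were 0.34 for TUBA1B, 0.37 for TUBB, 0.42 for TUBB4B and 0.28 for TUBB6. Without siNC replicate 2, the same genes were at 0.096, 0.098, 0.051 and 0.060. TUBB2A, TUBB2B and TUBB3 were at 0.060, -0.033 and 0.12 without siNC replicate 1. They were at -0.37, -0.42 and -0.30 without siNC replicate 2. TUBA1A was at -0.28 without siNC replicate 1 and at -0.72 without siNC replicate 2. In these fits the lone siNC library was assumed to vary like the siPRR11 libraries.

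**Figure D3:**
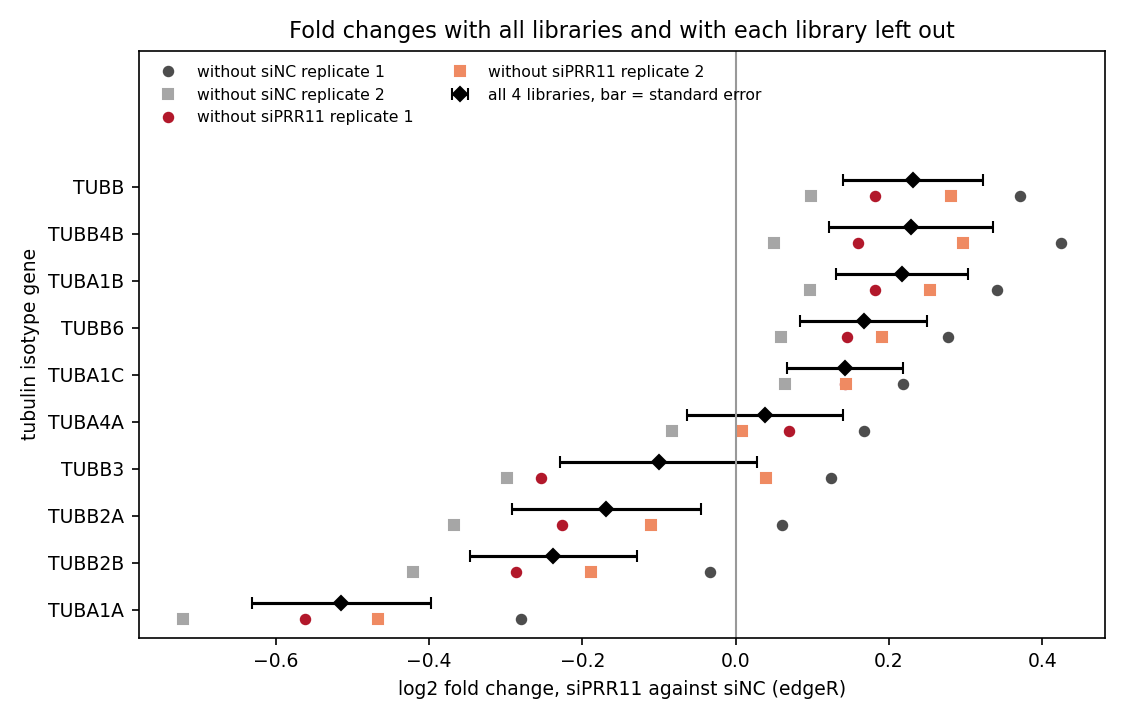
Log2 fold change of siPRR11 against siNC for each member, with the fit of all 4 libraries as a black diamond (bar, standard error) and the fits without 1 library as smaller points. Values without siNC replicate 1 lie to the right and values without siNC replicate 2 to the left for all 10 genes, and TUBA1A stays between -0.72 and -0.28.

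The makeup of each class was then expressed as the share of each isotype in the summed RPKM of the alpha or beta members, which removes a change common to all genes of the class. TUBA1A made up 13.2% and 11.6% of alpha RPKM in siNC and 8.05% and 7.87% in siPRR11. The mean share fell from 12.4% ± 1.13 (SD, n = 2) to 7.96% ± 0.131 (SD, n = 2), a difference of -4.41 percentage points. TUBA1B took 70.1% and 70.6% in siNC and 75.1% and 74.5% in siPRR11, a difference of 4.38 points. TUBA1C overlapped, at 15.3% and 16.4% against 15.6% and 16.3%. TUBA4A was at 1.41% and 1.42% against 1.27% and 1.39%, lower by a small margin. Shares of a class sum to a fixed total, so the lower share of TUBA1A and the higher share of TUBA1B are not separate results.

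In the beta class, TUBB4B took 34.1% and 33.1% in siNC and 36.2% and 35.6% in siPRR11, a difference of 2.34 points. TUBB took 28.7% and 29.8% against 31.1% and 31.4%, a difference of 1.99 points. Both lay higher in siPRR11. TUBB2B was at 13.6% and 13.0% in siNC and at 10.2% and 10.4% in siPRR11, a difference of -2.99 points. TUBB2A was at 5.04% and 4.71% against 3.98% and 3.97%, a difference of -0.899 points, and TUBB3 at 5.09% and 4.77% against 4.46% and 3.94%, a difference of -0.730 points. TUBB6 overlapped, with 13.5% and 14.6% against 14.0% and 14.7%. As in the alpha class, higher shares of TUBB and TUBB4B must come with lower shares of other genes, and TUBB2A and TUBB2B share most of their sequence, so these are not separate results.

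The exact permutation test could not go below its limit of 0.333 for any share, which is also how often 2 libraries separate from 2 by chance, and no share of this kind over all genes was computed as a background. The CPM of TUBA4A, TUBB2A, TUBB2B, TUBB3 and TUBB4B overlapped between the groups, and their shares did not. Over the 10 members, 5 shares lay lower in both siPRR11 libraries, 3 lay higher and 2 overlapped. Each of the 10 positions was the same when counts were used without division by length, when all alpha and beta genes of the table formed the total, when counts were divided by the number of unique 100-base positions and when they were divided by the length of the canonical transcript. All these settings reused the same counts. The divisor of a gene was the same in every library, and the genes added to the total were mostly rare. The settings could therefore hardly change which libraries lay higher, so their agreement is not a separate test of direction. The size of a share did depend on the setting. The mean siNC share of TUBB2B was 13.3% by RPKM and 23.7% per unique position, that of TUBB2A 4.87% and 11.3%, and that of TUBB3 4.93% and 8.62% per base of the canonical transcript.

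**Figure D4:**
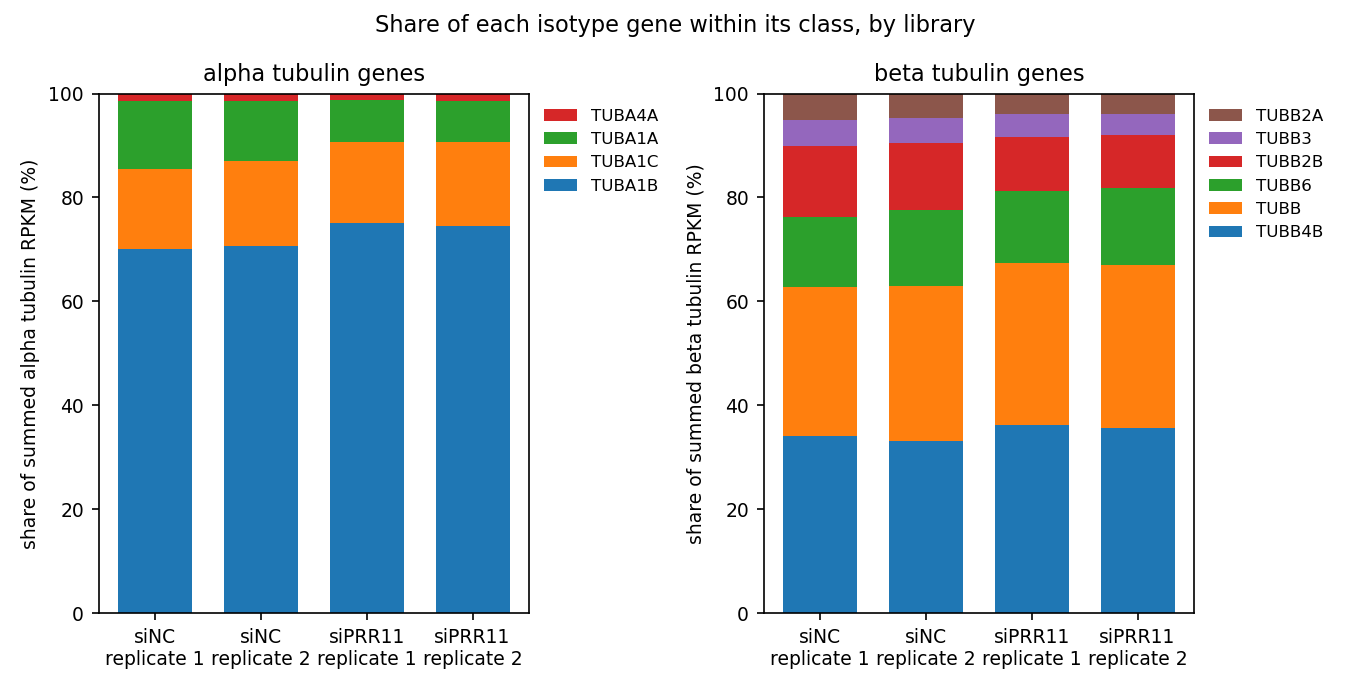
Stacked bars of the percent of summed RPKM taken by each isotype in each of the 4 libraries, alpha genes on the left and beta genes on the right. TUBA1A shrinks from 13.2% and 11.6% in siNC to 8.05% and 7.87% in siPRR11, and TUBB2B from 13.6% and 13.0% to 10.2% and 10.4%.

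The summed level of each class was compared as well. The alpha members summed to 434 and 364 RPKM in siNC and to 461 and 440 RPKM in siPRR11, without overlap. By TMM-scaled CPM the same sum overlapped, because siPRR11 replicate 2 (1623 CPM) lay below siNC replicate 1 (1642 CPM). The beta members summed to 429 and 342 RPKM in siNC and to 455 and 419 RPKM in siPRR11, which overlapped. Over all members the mean of siPRR11 was 1.13 times that of siNC in RPKM and 1.10 times in CPM. The ratio of summed beta to summed alpha RPKM was 0.989 and 0.940 in siNC and 0.987 and 0.951 in siPRR11, which overlapped. Because these are bulk samples, less RNA per cell and fewer cells with the RNA cannot be told apart.

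The counts of genes that overlap the members tracked them closely in some cases. RP11-386G11.10, on the opposite strand of TUBA1B, had 0.893 to 0.900 of the count of TUBA1B in every library, and RP11-566K11.2, on the same strand as TUBB3, had 0.918 to 0.941 of the count of TUBB3. XXbac-BPG252P9.9 opposite TUBB held 0.477 to 0.492 of its count, RP11-161H23.5 opposite TUBA1C 0.575 to 0.598, and STK16, a kinase gene opposite TUBA4A, 0.443 to 0.464. AFG3L2, a mitochondrial protease gene opposite TUBB6, varied more, with 0.524 to 0.921, and passed as lower (log2 fold change -0.39, adjusted p = 0.00614 from edgeR and 0.0581 with limma on log2(RPKM + 1)) while TUBB6 had a positive fold change. Whether the same reads were counted for both genes of a pair was not tested, and the strand setting of the counting is not given in the sources used here. TUBA1A shares 14.3% of its exonic bases with TUBA1C on the other strand, whose fold change had the opposite sign.

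The other tubulin genes were mostly rare, and 1 of the 10 tested passed, against 16.7% of all genes tested. TUBG1, the gamma-tubulin that nucleates microtubules, was the one of 10 tested that passed, at 195 and 169 CPM in siNC and 241 and 222 CPM in siPRR11 (log2 fold change 0.35, adjusted p = 0.0157 from edgeR), and it lost the call without siPRR11 replicate 1 and with limma on log2(RPKM + 1) (adjusted p = 0.0597). TUBG2 had a log2 fold change of 0.26 at 18.4 to 29.4 CPM, which was 0.57 without siNC replicate 1 (adjusted p = 0.000229 from edgeR) and 0.014 without siNC replicate 2. TUBD1 had 0.26 at 4.76 to 6.74 CPM and TUBE1 -0.23 at 10.2 to 13.0 CPM. TUBB4A, a beta isotype of brain, had 0.27 at 12.0 to 17.3 CPM, which was 0.51 without siNC replicate 1 (adjusted p = 0.00156 from edgeR) and 0.067 without siNC replicate 2. TUBA8, TUBA3D, TUBA4B, TUBB1 and TUBB8 stayed at or below 1.24 CPM in every library and did not pass. The groups did not overlap for TUBA8 (log2 fold change -0.69, adjusted p = 0.0909 from edgeR), TUBB1 (-0.80) and TUBB8 (1.64). They overlapped for TUBA3D (-0.05) and TUBA4B (-0.16). TUBA3E was not tested for lack of counts, and TUBA3C and TUBAL3 were not analysed here. The list counted 3 calls without siNC replicate 1 and 0 without siPRR11 replicate 1. The median log2 fold change of the list was 0.10.

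The counts of calls in the lists that follow stand against 16.7% over all genes tested, and no difference between lists was tested. That share holds for the main fit only. Fits without 1 library had other totals over all genes. Their list counts, here and for the other tubulin genes, do not stand against 16.7%. Of the gamma-tubulin ring complex, which forms the template for new microtubules, 3 of 9 genes passed: TUBGCP5 (log2 fold change 0.49) and MZT1 (0.50) were higher and MZT2A was lower (-0.33), with a list median of 0.06. MZT1 lost the call without siNC replicate 1, without siPRR11 replicate 2 and with DESeq2. MZT2A lost it without either siPRR11 library. All 3 genes lost it with limma, with adjusted p-values from 0.0504 to 0.0883 over both pseudocounts. Of 21 genes for folding tubulin, the cofactor gene TBCC rose from 37.1 and 38.9 CPM to 52.2 and 60.5 CPM (log2 fold change 0.57), while the chaperonin subunit CCT6A (-0.44), the prefoldin subunit PFDN2 (-0.35) and the cofactor TBCA (-0.26) fell, and the other 17 did not pass. These 4 of 21 are near the 16.7% of all genes, and its median was -0.04. TBCA lost the call without either siPRR11 library, and TBCA and PFDN2 lost it with limma.

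Among the 3 autoregulation genes, SCAPER, a partner in the decay of tubulin mRNA, passed as lower, from a mean of 18.6 CPM in siNC to 14.7 and 13.4 CPM in siPRR11 (log2 fold change -0.40, adjusted p = 0.0249 from edgeR). It lost the call without siNC replicate 1, without siPRR11 replicate 2 and with limma (adjusted p = 0.206 and 0.215). TTC5, which reads the first residues of nascent tubulin, and CNOT11 did not pass, and the list median was -0.08. Of 21 tested tubulin-modifying enzymes, TTLL12 (log2 fold change -0.52), TTLL11 (-0.92) and TTLL7 (-0.50) fell and TTLL6 (0.30) rose, all members of the tubulin ligase family. These 4 of 21 are near the 16.7% of all genes, and the list median was -0.03. With limma only TTLL12 passed. This list counted 1 call without siNC replicate 2, 1 without siPRR11 replicate 1 and 1 without siPRR11 replicate 2.

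Of 39 tested microtubule-associated proteins, 6 passed as higher and 9 as lower, which is 38.5% against 16.7% of all genes, with a median of -0.04. With limma 8 or 9 passed, where 1775 or 1878 of all 21630 genes passed. CLIP2, a plus-end linker, fell from 129 and 119 CPM to 52.0 and 49.4 CPM (log2 fold change -1.29), STMN3, a stathmin that binds tubulin dimers, fell by 1.15 on the log2 scale, TACC2 by 0.92 and MAP7D1 by 0.69. Without siPRR11 replicate 2 the list counted 9 calls. Of 16 G2/M genes taken without tubulins and kinesins, 10 passed as higher and none as lower, with a median of 0.34. NUSAP1, which bundles spindle microtubules, rose by 0.67 on the log2 scale, TOP2A by 0.63, CENPF by 0.38 and CDK1 by 0.35. This list counted 5 calls without siPRR11 replicate 1. Of 10 renal and epithelial markers, 1 passed as higher and 1 as lower, which is 20% against 16.7% of all genes. Their median log2 fold change was -0.13, with 3 above 0 and 7 below. The one that passed as higher was the keratin gene KRT18, which rose by 0.36 on the log2 scale. The part of the G2/M genes and of the markers in the tubulin values was not tested.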

How the data were processed

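RNA-seq libraries of ACHN cells were grouped by their labels into siNC and siPRR11, 2 each. The authors trimmed reads with Trimmomatic 0.36, used STAR for alignment to GRCh38 and featureCounts of Subread 1.5.1 for the reads of each gene, and deposited raw counts and RPKM. Libraries were stranded. The strand setting, annotation release and read length are not given in the sources used here. Counts were tested with edgeR 4.0.16 in R 4.3.3 (TMM, filterByExpr, condition as the only term), with p-values adjusted over 21630 genes at a threshold of 0.05. The method was tested on simulated data. Standard errors given with edgeR fold changes were derived, as the absolute log2 fold change over the square root of the quasi-likelihood F statistic. They were not estimated separately and add nothing to the p-value. The members and gene lists were chosen with earlier results of these data known, and each list names up to 4 genes of smallest p that passed without overlap. MATCAP1 was matched as KIAA0895L, and AGBL4 and HBB were not analysed here. Results for 1 gene of the lists and some sequences are not reported here. Sequences were read from GRCh38 with GENCODE release 44. Alternatives were RLE normalization, DESeq2 1.42.0, no filter, at least 10 counts in every library, a replicate block, limma 3.58.1 on log2 RPKM plus 1 or 0.1 and each library left out. Share divisors by unique positions and canonical transcripts were chosen after seeing the data. Replicates differed by more than sampling noise (chi-square per degree of freedom 19.0 in siNC and 12.9 in siPRR11).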

Additional observations from a re-analysis of the deposited data

How the results depend on the processing

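The number of members that passed was 1 with RLE normalization, DESeq2 and at least 10 counts in every library. It was 5 with no filter on low counts, where 4460 of 34506 genes passed, and 6 with the replicate block, where 6988 of 21630 passed. In both limma fits 5 members had an unadjusted p under 0.05, as did 6156 and 6128 of 21630 genes. The number of members that passed was 0 with limma on log2(RPKM + 1) and 0 on log2(RPKM + 0.1), where 1775 and 1878 genes passed. It ranged from 1 to 5 when each library was left out. TUBA1A kept its call in 9 of 11 alternatives, and its share difference stayed between -5.21 and -3.61 percentage points with each library left out. Over all genes, 6988 passed with the replicate block, 1775 and 1878 with limma, and 2172 to 4590 with each library left out. The higher calls made up 45.4% of all calls, and 61.5% and 61.3% with limma. The labels do not say that replicate numbers pair the libraries, and the deviations of equal numbers correlated weakly (r = 0.15 over 21630 genes, which are not independent). The replicate block leaves 1 residual degree of freedom and called TUBA1B, TUBB, TUBB4B and TUBB6 as higher and TUBA1A and TUBB2B as lower.

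With each library left out, signs turned for small changes. The log2 fold change ranged from -0.083 to 0.17 for TUBA4A, from -0.37 to 0.060 for TUBB2A, from -0.30 to 0.12 for TUBB3, from -0.47 to 0.42 for TUBA3D, from -0.47 to 0.089 for TUBA4B, from -0.30 to 0.15 for RP11-566K11.2 and from -0.11 to 0.18 for STK16. For TUBA3D it was 0.0053 with limma on log2(RPKM + 0.1). Share differences ranged from -0.445 to 0.657 points for TUBA1C and from -0.262 to 0.830 points for TUBB6. The cause was not tested. Of the list counts, 66 stayed within 1.5 times their value and 33 did not.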
